A study of Mus musculus with 6 samples.

Results

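Expression of 9 genes that mark macrophages, monocytes, dendritic cells and neutrophils was examined in mouse lung tumours grown from Uhrf1 knockout or control cancer cells. The genes were taken by name: Mrc1, C1qc, Trem2, Lyz2, Ly6c2 and Ccr2 for macrophages and monocytes, Itgax and Wdfy4 for dendritic cells, and Csf3r for neutrophils. They are 9 of the 10772 genes that could be identified in the count tables, and 9 of 9 passed the filter on low counts, among 4577 genes tested. The sgUhrf1 tumours came from LG1233-OVA cells, a murine lung cancer line, made into a stable Uhrf1 knockout line with CRISPR/Cas9. The sgNT tumours came from LG1233-OVA cells labelled as wild type and as the control. OVA stands for the model antigen ovalbumin. In both groups 1000000 cells were placed under the skin of female C57BL/6 mice, and whole tumours were taken on day 27. Each group has 3 tumours, and the labels do not say whether a line is 1 clone or a pool.

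Macrophages and dendritic cells in tumours derive largely from blood monocytes and other bone marrow precursors. Monocytes leave the bone marrow through the chemokine receptor Ccr2 and can become macrophages, which take up dying cells and debris. Dendritic cells carry antigen to T cells, and neutrophils are short-lived cells that depend on granulocyte colony-stimulating factor.

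The total count per tumour ran from 5462555 to 6375069. Of 10503 features tested with the edgeR quasi-likelihood test, 4187 (39.9%) passed an adjusted p of 0.05, so a large share of all features differed between these groups. Uhrf1 itself averaged 94.7 ± 24.5 counts per 1000000 scaled counts (CPM) in sgUhrf1 tumours and 122 ± 21 CPM in sgNT tumours, with overlapping groups (SD, n = 3 each; edgeR adjusted p = 0.227). The RNA is of whole tumours and so holds host RNA as well. Skeletal muscle genes summed to 400 CPM in sgUhrf1 replicate 1 and 473 CPM in sgNT replicate 2, against 2.84 to 24.0 CPM in the other 4 tumours. Values without those 2 tumours are therefore given where they change a result.

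Of the 9 genes, Csf3r and Itgax were higher and Wdfy4 lower in sgUhrf1 tumours, and the 6 macrophage and monocyte genes did not pass the test. That is 2 of 9 higher, beside 20.6% of all tested genes, and 1 of 9 lower, beside 21.5% of all tested genes. The CPM of the groups did not overlap for these same 3 genes. Without overlap, 26.5% of all tested genes were higher and 29.6% were lower. The counts among the 9 genes are near the background or below it and are no result about myeloid markers as a group. The median log2 fold change of all tested genes was -0.0043. In bulk RNA, fewer cells of a type and less RNA per cell cannot be told apart. The p-values measure the spread between these tumours, which the labels call biological replicates. The sgUhrf1 tumours share a knockout line, so the knockout and any other difference between the lines cannot be told apart.

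**Figure D1:**
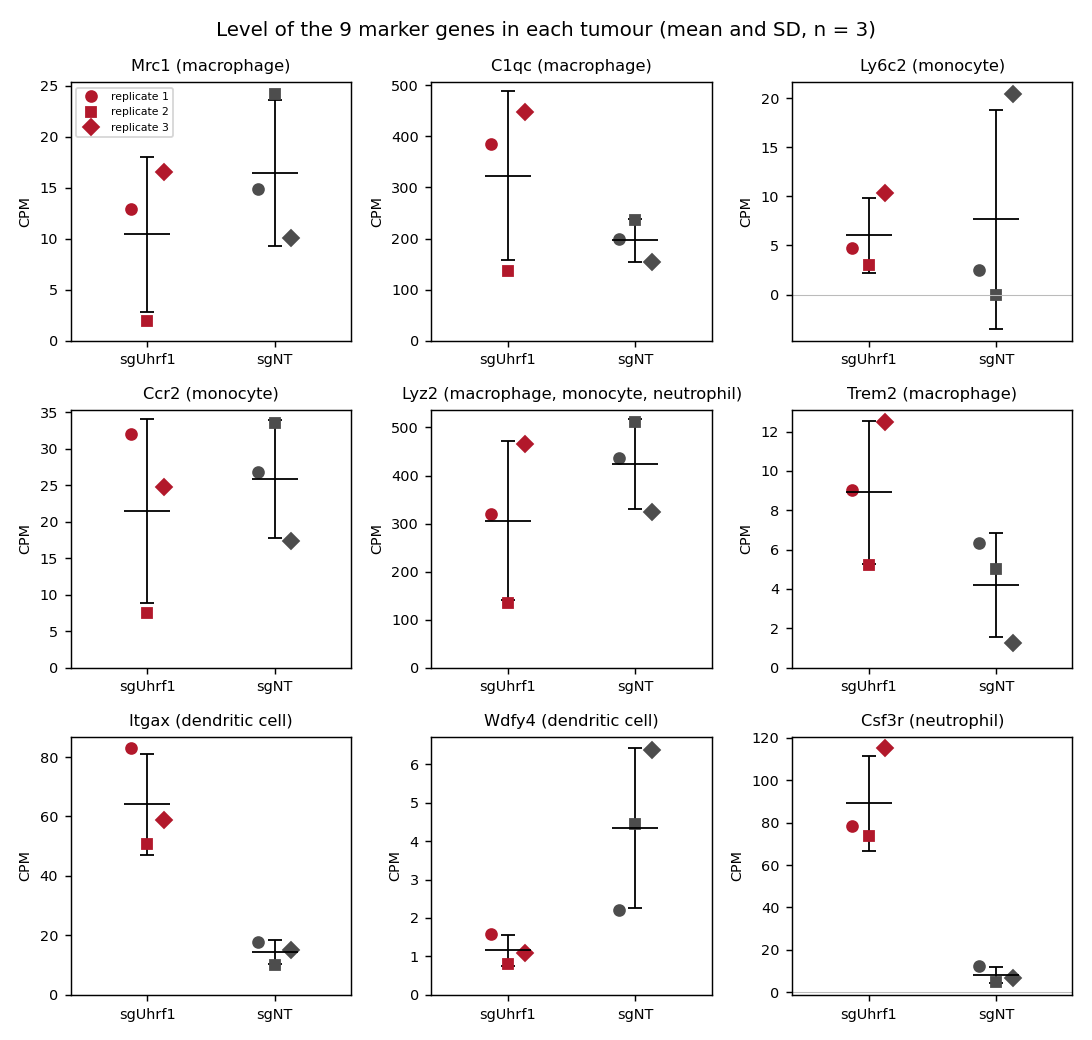
Level of each of the 9 marker genes in CPM on the vertical axis, with sgUhrf1 tumours at left and sgNT tumours at right, a symbol per replicate and bars for the mean and SD of 3 tumours. Csf3r and Itgax stand apart upward in sgUhrf1 tumours and Wdfy4 stands apart downward, while the other 6 genes overlap between the groups.

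The level of a gene here is the count of the feature that lies over its exons, and most of these features cover a part of the gene only. The feature used for Ccr2 lies wholly in exon, over 1836 bp. The feature used for Wdfy4 is mostly intron, with 681 bp of exon in 11444 bp. Those used for Csf3r, Itgax and Mrc1 are mostly intron too, at 1547 of 1942 bp, 1323 of 2562 bp and 3641 of 6371 bp. The Mrc1 feature has a further 2454 bp outside the gene, and the C1qc feature has 1011 of its 2904 bp outside. That of Trem2 holds 691 bp of exon, of which 0 bp belong to the main transcript: all of it belongs to other transcripts, and the feature was annotated on the opposite strand. Reads were counted without strand, so for each gene a read may come from spliced RNA, intron or an overlapping transcript. Levels are therefore compared between groups for 1 gene at a time and not between genes.

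**Figure D2:**
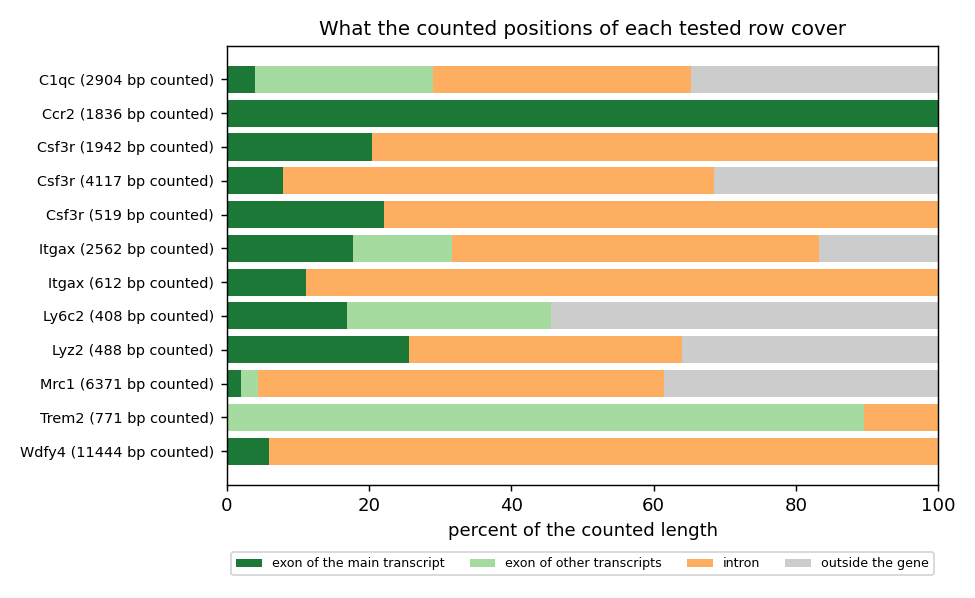
Share, in percent of the counted length, that is exon of the main transcript, exon of other transcripts, intron, or outside the gene, for each tested feature of the 9 genes. Ccr2 is all exon of the main transcript, Trem2 has none of it, and the features of Wdfy4, Csf3r, Itgax and Mrc1 are mostly intron.

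Csf3r, the receptor of granulocyte colony-stimulating factor that marks neutrophils and their precursors, rose most of the 9 genes. The gene lies on chromosome 4 (GRCm38, chr4:126024550-126044440, plus strand), and 3 separate features lie over its coding exons. Coding exons from all 3 are shown because the gene was counted at 3 places. Exon 13 belongs to the feature with most counts, exon 5 to the next and exon 12 to the third. All letters are from the GENCODE M21 transcript, written 5′ to 3′.
Csf3r exon 13, chr4:126042660-126042750, plus strand: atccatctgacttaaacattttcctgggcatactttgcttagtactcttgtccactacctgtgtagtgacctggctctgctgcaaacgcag
Csf3r exon 5, chr4:126034170-126034339, plus strand: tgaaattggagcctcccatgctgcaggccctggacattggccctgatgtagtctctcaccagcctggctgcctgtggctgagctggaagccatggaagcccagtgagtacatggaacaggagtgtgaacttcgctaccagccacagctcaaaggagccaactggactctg
Csf3r exon 12, chr4:126039772-126039886, plus strand: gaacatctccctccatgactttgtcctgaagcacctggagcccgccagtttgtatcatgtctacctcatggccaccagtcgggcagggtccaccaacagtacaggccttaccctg

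The feature over exons 13 and 15, with 395 bp of exon in 1942 bp, held 78.4, 73.8 and 115 CPM in the 3 sgUhrf1 tumours, against 12.4, 5.04 and 6.91 CPM in the 3 sgNT tumours. All 3 sgUhrf1 tumours lay above all 3 sgNT tumours. Its mean was 89.1 ± 22.6 CPM in sgUhrf1 tumours and 8.10 ± 3.8 CPM in sgNT tumours (SD, n = 3 each), an 11-fold difference, with a log2 fold change of 3.46 ± 0.35 (SE; edgeR adjusted p = 0.000246). The counts behind it were 443, 465 and 523 in sgUhrf1 tumours and 78, 34 and 39 in sgNT tumours.

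The feature over exons 5 and 6, of whose 4117 bp 324 bp are exon, 2494 bp intron and 1299 bp outside the gene, held 34.9, 34.9 and 29.7 CPM in sgUhrf1 tumours and 6.02, 2.82 and 4.43 CPM in sgNT tumours. It had a log2 fold change of 2.90 ± 0.32 (SE; edgeR adjusted p = 0.000353). The feature over exon 12 held 13.1, 17.5 and 22.6 CPM in sgUhrf1 tumours and 3.96, 1.78 and 0.709 CPM in sgNT tumours. Its log2 fold change was 3.02 ± 0.53 (SE; edgeR adjusted p = 0.00272). At all 3 places the groups did not overlap. The features share the same tumours and are not independent of each other.

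**Figure D3:**
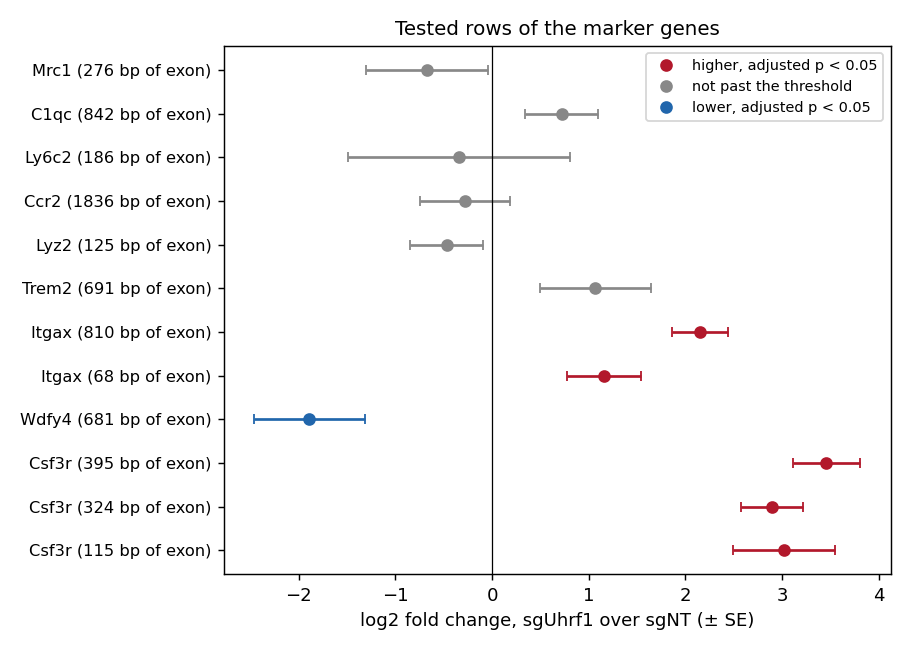
Log2 fold change of sgUhrf1 over sgNT on the horizontal axis for each tested feature of the 9 genes, with bars of 1 SE and colour for the call at an adjusted p of 0.05. The 3 Csf3r features and the 2 Itgax features lie to the right, Wdfy4 lies to the left, and the features of the other 6 genes did not pass the test.

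Among 30 genes listed for neutrophils, 7 had a feature of their own and were tested, and 3 rose and 4 did not pass. Over all tested genes, 20.6% were higher and 21.5% lower. The list's median log2 fold change was 0.92. Besides Csf3r, Hdc, which makes histamine, averaged 24.8 CPM in sgUhrf1 tumours and 1.5 CPM in sgNT tumours (log2 fold change 4.02 ± 0.62, edgeR adjusted p = 0.00141). Il1r2, a decoy receptor for interleukin-1, averaged 18.3 CPM in sgUhrf1 tumours and 2.05 CPM in sgNT tumours (3.14 ± 0.57, edgeR adjusted p = 0.0031). These 3 genes kept their calls under every alternative that could test them. The others gave log2 fold changes of 0.15 ± 0.75 for the collagenase gene Mmp8, 0.64 ± 0.43 for the lectin gene Clec4d, 0.70 ± 0.56 for the formyl peptide receptor gene Fpr1 and 0.92 ± 0.67 for Wfdc21. The summed level of the list was 119, 125 and 238 CPM in sgUhrf1 tumours and 33.7, 20.5 and 37.2 CPM in sgNT tumours, without overlap. Csf3r alone gave 78.4, 73.8 and 115 CPM of the sgUhrf1 sums and 12.4, 5.04 and 6.91 CPM of the sgNT sums. The sum therefore in part repeats the Csf3r result. Hdc is also a product of mast cells and basophils, and the list for those cells summed to 32.4, 49.4 and 36.7 CPM in sgUhrf1 tumours and 26.4, 9.64 and 8.86 CPM in sgNT tumours. Its part in the Hdc value was not tested.

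Itgax, the integrin subunit CD11c, is carried by dendritic cells and also by some macrophages, natural killer cells and T cells. It lies at chr7:128129547-128150657 on the plus strand (GRCm38). Exon 25 is shown from the feature with most counts and exon 18 from the other feature over the gene, both coding.
Itgax exon 25, chr7:128148015-128148119, plus strand: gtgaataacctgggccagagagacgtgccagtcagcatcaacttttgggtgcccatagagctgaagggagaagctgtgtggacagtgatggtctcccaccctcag
Itgax exon 18, chr7:128141200-128141267, plus strand: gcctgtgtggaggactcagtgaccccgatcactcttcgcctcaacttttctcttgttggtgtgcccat

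Itgax held 83.2, 50.6 and 58.7 CPM in sgUhrf1 tumours, against 17.9, 10.2 and 15.2 CPM in sgNT tumours. The lowest sgUhrf1 tumour stood above the highest sgNT tumour. The means were 64.2 ± 17 CPM in sgUhrf1 tumours and 14.5 ± 3.89 CPM in sgNT tumours (SD, n = 3 each), a 4.44-fold difference, with a log2 fold change of 2.15 ± 0.29 (SE; edgeR adjusted p = 0.000794). This feature covers 2562 bp, of which 810 bp are exon of Itgax and 429 bp lie outside the gene, within Gm49368. The feature over exon 18, with 68 bp of exon, held 8.32, 5.56 and 6.60 CPM in sgUhrf1 tumours and 3.17, 3.11 and 2.84 CPM in sgNT tumours, also without overlap. Its log2 fold change was smaller, 1.16 ± 0.38 (SE; edgeR adjusted p = 0.0373).

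Wdfy4, which dendritic cells of the type specialised in cross-presentation need to present antigen of dead cells, was lower in sgUhrf1 tumours. It lies at chr14:32959547-33185508 on the minus strand (GRCm38), and the feature covers coding exons 19 to 22 of 59 exons. Exon 21 is shown.
Wdfy4 exon 21, chr14:33101503-33101614, minus strand: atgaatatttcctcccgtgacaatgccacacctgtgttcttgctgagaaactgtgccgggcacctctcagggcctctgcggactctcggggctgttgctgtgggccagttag

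Wdfy4 held 9, 5 and 5 counts in sgUhrf1 tumours, against 14, 30 and 36 counts in sgNT tumours. The groups did not overlap, but the lowest sgNT tumour was near the sgUhrf1 tumours. The means were 1.16 ± 0.404 CPM in sgUhrf1 tumours and 4.35 ± 2.08 CPM in sgNT tumours (SD, n = 3 each), with a log2 fold change of -1.89 ± 0.57 (SE; edgeR adjusted p = 0.027). A further feature, over exon 30, held 4, 3 and 0 counts in sgUhrf1 tumours and 4, 15 and 20 counts in sgNT tumours and was too low to test. The call was lost without sgUhrf1 replicate 2 (adjusted p = 0.0823 in edgeR), sgUhrf1 replicate 3 (0.0607), sgNT replicate 2 (0.0825) or sgNT replicate 3 (0.14). It was also lost without the 2 muscle-rich tumours (edgeR adjusted p = 0.103).

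Of 30 dendritic cell genes, 11 were tested, and 5 rose, 3 fell and 3 did not pass, with a median log2 fold change of 1.12. Itgax is among those that rose and Wdfy4 among those that fell, so these counts in part repeat the results above. The shares over all tested genes were 20.6% higher and 21.5% lower. Ccl22, a chemokine of activated dendritic cells and macrophages, averaged 53.1 CPM in sgUhrf1 tumours and 4.10 CPM in sgNT tumours (log2 fold change 3.68 ± 0.38, edgeR adjusted p = 0.000258). Irf8, a transcription factor that dendritic cells and monocytes require, averaged 155 CPM in sgUhrf1 tumours and 44.7 CPM in sgNT tumours (1.80 ± 0.31, edgeR adjusted p = 0.00252). Relb, of the NF-kappaB family, averaged 123 CPM in sgUhrf1 tumours and 56.5 CPM in sgNT tumours (1.12 ± 0.20, edgeR adjusted p = 0.00272). Mgl2, a lectin gene, averaged 54.2 CPM in sgUhrf1 tumours and 13.5 CPM in sgNT tumours (2.00 ± 0.53, edgeR adjusted p = 0.0162).

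Ly75, the endocytic receptor DEC-205, held 2 counts over the 3 sgUhrf1 tumours and 50 counts over the 3 sgNT tumours, and passed as lower (edgeR adjusted p = 0.00524). The ratio of its counts, scaled for library size, was 0.0454, with an exact 95% binomial interval of 0.00535 to 0.173 that covers counting error only. Tcf4, a factor of plasmacytoid dendritic cells that other cell types also use, averaged 8.30 CPM in sgUhrf1 tumours and 16.7 CPM in sgNT tumours (-1.0 ± 0.32, edgeR adjusted p = 0.0323). Ccl22, Irf8, Relb and Ly75 kept their calls in every refit that could test them. Mgl2 lost its call without sgUhrf1 replicate 1 (edgeR adjusted p = 0.0623), sgNT replicate 2 (0.0517) or sgNT replicate 3 (0.0559). Tcf4 lost its call without sgUhrf1 replicate 2 (edgeR adjusted p = 0.0676), sgUhrf1 replicate 3 (0.0666), sgNT replicate 2 (0.121) or sgNT replicate 3 (0.0698). Both also lost it without the 2 muscle-rich tumours (edgeR adjusted p = 0.125 and 0.134). Mgl2 lost its call with limma-voom (adjusted p = 0.0559) and Tcf4 with the replicate block (edgeR adjusted p = 0.0537). Itgae did not pass (1.68 ± 0.6, edgeR adjusted p = 0.0508) but was called higher in some refits, such as DESeq2 (adjusted p = 0.0399). The dendritic cell genes Flt3 and Zbtb46 held 2 and 23 counts over all 6 tumours and were not tested, which puts these defining genes of conventional dendritic cells near 0 in the features used here.

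Mrc1, the mannose receptor CD206 of tissue and wound-healing macrophages, held 12.9, 1.90 and 16.5 CPM in sgUhrf1 tumours and 14.9, 24.2 and 10.1 CPM in sgNT tumours. The groups overlapped, and the lowest value was that of sgUhrf1 replicate 2. Its log2 fold change was -0.67 ± 0.63 (SE; edgeR adjusted p = 0.43). C1qc, a chain of the complement protein C1q made by macrophages, held 386, 136 and 448 CPM in sgUhrf1 tumours and 199, 237 and 153 CPM in sgNT tumours. A pair of sgUhrf1 tumours was higher than every sgNT tumour, and sgUhrf1 replicate 2 was below them all. The means were 324 ± 165 CPM in sgUhrf1 tumours and 197 ± 42.3 CPM in sgNT tumours (SD, n = 3 each; log2 fold change 0.72 ± 0.38, edgeR adjusted p = 0.164). Without sgUhrf1 replicate 2, C1qc passed the test, with a log2 fold change of 1.07 (edgeR adjusted p = 0.00819).

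The coding stretch of C1qc inside its feature, on the minus strand, is part of exon 3 of 3 and is shown because it is the piece of the main transcript that was counted; the other 727 bp of exon belong to another transcript.
C1qc exon 3, chr4:136890485-136890599, minus strand: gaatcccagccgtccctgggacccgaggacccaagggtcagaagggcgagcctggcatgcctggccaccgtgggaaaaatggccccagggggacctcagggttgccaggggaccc

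Trem2, a lipid receptor of macrophages in tumours and microglia in the brain, held 9.03, 5.24 and 12.5 CPM in sgUhrf1 tumours and 6.33, 5.04 and 1.24 CPM in sgNT tumours. The groups overlapped narrowly. The log2 fold change was 1.07 ± 0.57 (SE; edgeR adjusted p = 0.167). Lyz2, the lysozyme gene of macrophages, monocytes and neutrophils, held 320, 134 and 465 CPM in sgUhrf1 tumours and 437, 511 and 324 CPM in sgNT tumours. The groups overlapped, and sgUhrf1 replicate 2 was lowest. The means were 306 ± 166 CPM in sgUhrf1 tumours and 424 ± 94.2 CPM in sgNT tumours (SD, n = 3 each; log2 fold change -0.47 ± 0.38, edgeR adjusted p = 0.361).

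Ccr2, the receptor that guides monocytes to tissue, held 32.0, 7.46 and 24.8 CPM in sgUhrf1 tumours and 26.8, 33.5 and 17.4 CPM in sgNT tumours. The groups overlapped, with sgUhrf1 replicate 2 again the lowest tumour. Its log2 fold change was -0.28 ± 0.47 (SE, edgeR adjusted p = 0.674), and without sgUhrf1 replicate 2 it was 0.12. Another Ccr2 feature, with 226 bp of exon, held 9, 3 and 2 counts in sgUhrf1 tumours and 13, 31 and 9 counts in sgNT tumours. One annotated on the opposite strand held 15, 1 and 5 counts in sgUhrf1 tumours and 9, 4 and 3 counts in sgNT tumours. Both were too low to test. Ly6c2, a surface protein of inflammatory monocytes, held 27, 19 and 47 counts in sgUhrf1 tumours and 16, 0 and 115 counts in sgNT tumours. The sgNT tumours held both the lowest and the highest value, and sgNT replicate 3 decided the group mean. Its log2 fold change was -0.34 ± 1.15 (SE; edgeR adjusted p = 0.838), and without sgNT replicate 3 it was 2.25. The count of 0 in sgNT replicate 2 allows up to 0.445 CPM, by 3 counts and for counting error only.

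Lyz2 and Ly6c2 have near-identical neighbours, and their counted exon stretches show how well reads can tell them apart. In the Lyz2 stretch capitals mark the bases that differ from Lyz1, 13 of 125; Ly6c2 differs from Ly6c1 at 0 of 69 bases, so reads in that coding stretch cannot be assigned to Ly6c2 by their letters.
Lyz2 exon 1, chr10:117282107-117282231, minus strand: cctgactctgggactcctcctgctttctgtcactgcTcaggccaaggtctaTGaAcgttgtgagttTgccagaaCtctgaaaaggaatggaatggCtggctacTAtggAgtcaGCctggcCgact
Ly6c2 exon 3, chr15:75110549-75110617, minus strand: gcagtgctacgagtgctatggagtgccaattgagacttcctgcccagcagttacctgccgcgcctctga

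Mrc1, C1qc, Ccr2 and Lyz2 were each lowest in sgUhrf1 replicate 2. By edgeR, 0 of the 6 macrophage and monocyte genes had an unadjusted p under 0.05, and the calls were likewise 0 of 6 with DESeq2 and with limma-voom. A p that misses the threshold does not show that levels were the same. The log2 fold changes ran from -0.67 to 1.07 with standard errors of 0.38 to 1.15.

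Among 42 monocyte and macrophage genes, 15 were tested. Of these, 4 rose, 2 fell and 9 did not pass, with a median log2 fold change of -0.28. Over all tested genes, 20.6% were higher and 21.5% lower, and beside these shares the counts are no result about the list as a group. Ctss, the lysosomal protease cathepsin S, averaged 646 CPM in sgUhrf1 tumours and 237 CPM in sgNT tumours (1.44 ± 0.29, edgeR adjusted p = 0.00481). Aif1, the macrophage and microglia protein IBA1, averaged 99.9 CPM in sgUhrf1 tumours and 22.5 CPM in sgNT tumours (2.15 ± 0.51, edgeR adjusted p = 0.0102). Plac8 averaged 652 CPM in sgUhrf1 tumours and 300 CPM in sgNT tumours (1.12 ± 0.38, edgeR adjusted p = 0.042). Gpnmb, found in lipid-laden macrophages, averaged 20.4 CPM in sgUhrf1 tumours and 9.94 CPM in sgNT tumours (1.03 ± 0.34, edgeR adjusted p = 0.0392).

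The receptor tyrosine kinase genes Axl and Mertk, which help macrophages take up dying cells, were both lower. Axl averaged 26.1 CPM in sgUhrf1 tumours and 271 CPM in sgNT tumours (log2 fold change -3.38 ± 0.34, edgeR adjusted p = 0.000225), and cancer cells and fibroblasts also express it. Mertk averaged 4.07 CPM in sgUhrf1 tumours and 12.6 CPM in sgNT tumours (-1.64 ± 0.58, edgeR adjusted p = 0.0492). Axl kept its call in all 15 refits that could test it. Mertk lost it without sgUhrf1 replicate 1 (edgeR adjusted p = 0.0629), sgNT replicate 1 (0.078), sgNT replicate 2 (0.0977) or sgNT replicate 3 (0.131), without the 2 muscle-rich tumours (0.118), with DESeq2 size factors (0.0502) and with the features of a gene summed (0.0534). Plac8 lost it without sgUhrf1 replicate 2 (0.0733 in edgeR), sgUhrf1 replicate 3 (0.148), sgNT replicate 1 (0.0971), sgNT replicate 2 (0.121) or sgNT replicate 3 (0.108), and also with the replicate block (0.0723) and limma-voom (0.075). Gpnmb lost it without sgUhrf1 replicate 1 (0.0663 in edgeR), sgUhrf1 replicate 3 (0.106), sgNT replicate 2 (0.148) or sgNT replicate 3 (0.118). It also lost it without the 2 muscle-rich tumours (edgeR adjusted p = 0.205), with the replicate block (0.0505), and over a feature with at least 200 bp of exon, where the Gpnmb log2 fold change was 0.44 (edgeR adjusted p = 0.353). Aif1 and Ctss lost theirs only without the 2 muscle-rich tumours together (edgeR adjusted p = 0.0582 and 0.0531), among refits that could test them. The features of Axl, Ctss, Plac8 and Mertk hold 104, 166, 101 and 54 bp of exon, so these genes could not be tested at 200 bp or more. Where at least 200 bp was asked, 1 gene of the list was higher and 0 were lower. Of the genes that did not pass, Nos2 (1.28 ± 0.47, edgeR adjusted p = 0.0567) was called higher in some refits, such as DESeq2 (adjusted p = 0.0327). Cybb (-0.93 ± 0.37, edgeR adjusted p = 0.0714) was called lower with features summed (0.0448). The groups did not overlap for Cybb or for Cd84 (-1.26 ± 0.52, edgeR adjusted p = 0.0799), both lower in sgUhrf1 tumours. The list's summed level was 1870, 1420 and 3150 CPM in sgUhrf1 tumours and 1540, 1650 and 1440 CPM in sgNT tumours. The 2 groups overlapped there.

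**Figure D4:**
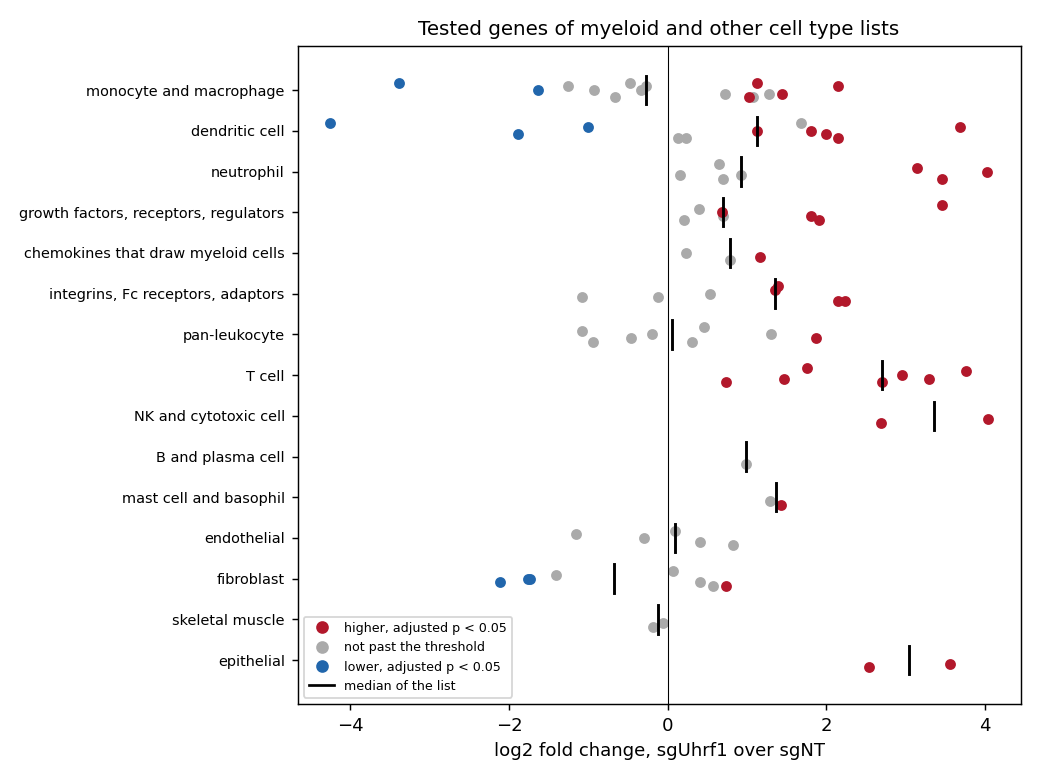
Log2 fold change of sgUhrf1 over sgNT for each tested gene of 15 cell type lists, with colour for the call at an adjusted p of 0.05 and a black bar at the list's median. The macrophage list holds points on both sides of 0, while the tested neutrophil genes lie to the right of 0.

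The genes that make, receive and direct myeloid cells were given in 3 further lists. Their counts stand beside 20.6% higher and 21.5% lower over all tested genes. Of 7 tested genes among 24 growth factors, receptors and lineage regulators, 4 rose. They were Csf3r and Irf8, given above, the receptor subunit gene Csf2rb (46.9 CPM in sgUhrf1 tumours and 29.2 CPM in sgNT tumours; 0.68 ± 0.24, edgeR adjusted p = 0.049) and the nuclear receptor gene Nr4a1 (1.90 ± 0.57, edgeR adjusted p = 0.0263). Csf2rb lost its call without any 1 of sgUhrf1 replicates 1 and 3 and sgNT replicates 1, 2 and 3 (edgeR adjusted p = 0.156, 0.11, 0.136, 0.0861 and 0.154), with the 2 muscle-rich tumours left out (0.21), with the replicate block (0.0995), with limma-voom (0.0607), with no filter (0.122) and with features summed (0.0605). It kept its call in 6 of 16 alternatives. Nr4a1 lost it without sgUhrf1 replicate 3 (edgeR adjusted p = 0.0832), sgNT replicate 2 (0.105) or sgNT replicate 3 (0.0844), without the 2 muscle-rich tumours (0.0833) and with the replicate block (0.0525). The regulators Spi1, at 0.21 ± 0.43, and Klf4, at 0.69 ± 0.31 on the log2 scale, did not pass. Of 3 chemokine genes tested among 20, Cx3cl1, which draws monocytes, rose (189 CPM in sgUhrf1 tumours and 84.8 CPM in sgNT tumours; 1.16 ± 0.25, edgeR adjusted p = 0.00644). Of 7 integrin, Fc receptor and adaptor genes tested among 20, 4 rose, Itgax among them. The integrin subunit gene Itgb2 averaged 5.33 CPM in sgUhrf1 tumours and 11.2 CPM in sgNT tumours, without overlap. It did not pass (-1.08 ± 0.41, edgeR adjusted p = 0.0605), but some refits called it lower. Among them were DESeq2 (adjusted p = 0.0483), limma-voom (0.0479) and the replicate block (0.0466 in edgeR). Clec7a, the fungal receptor dectin-1, averaged 108 CPM in sgUhrf1 tumours and 22.9 CPM in sgNT tumours (2.23 ± 0.25, edgeR adjusted p = 0.00038). Fgr, a Src-family kinase, averaged 18.5 CPM in sgUhrf1 tumours and 7.24 CPM in sgNT tumours (1.35 ± 0.28, edgeR adjusted p = 0.00537); its call was lost without the 2 muscle-rich tumours (0.0713). Pirb, an inhibitory receptor, rose by 1.39 ± 0.41 on the log2 scale (edgeR adjusted p = 0.0239). It lost its call without any 1 of sgUhrf1 replicates 1 and 3 and sgNT replicates 1, 2 and 3 (edgeR adjusted p = 0.0561, 0.0817, 0.0654, 0.0753 and 0.0687), with the 2 muscle-rich tumours left out (0.12) and with limma-voom (0.0653).

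Some myeloid genes had no feature of their own. A feature shared by Ccl3 and Rpl9-ps1 gave a log2 fold change of 3.00 (edgeR adjusted p = 0.00182), and one shared by Cxcl3 and Ppbp gave 3.25 (edgeR adjusted p = 0.000407). The feature shared by Csf1r, the receptor of the macrophage growth factor, gave 0.11 (edgeR adjusted p = 0.797). The feature shared by Mmp9, a neutrophil gelatinase gene, gave -1.80 (edgeR adjusted p = 0.00768), and that shared by Ltf, the lactoferrin gene, gave 2.71 (edgeR adjusted p = 0.00455). None of these can be assigned to 1 gene.

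Markers of other cells moved as well. Their calls without the 2 muscle-rich tumours are not given here. Of all tested genes, 20.6% were higher and 21.5% were lower. All 7 tested T cell genes and both tested natural killer cell genes rose, with median log2 fold changes of 2.70 and 3.36. The T cell list summed to 589, 411 and 825 CPM in sgUhrf1 tumours and 290, 254 and 308 CPM in sgNT tumours. Most of that sum was Thy1, which fibroblasts also express, at 436, 292 and 525 CPM in sgUhrf1 tumours and 261, 235 and 254 CPM in sgNT tumours. The natural killer cell list summed to 59.5, 34.0 and 74.1 CPM in sgUhrf1 tumours and 14.4, 3.85 and 4.79 CPM in sgNT tumours. The B and plasma cell list summed to 7.26, 11.3 and 9.24 CPM in sgUhrf1 tumours and 0.95, 0.445 and 71.1 CPM in sgNT tumours. In sgNT replicate 3 the B cell gene Ms4a1 gave 58.3 CPM of that sum, and the same tumour held the highest Ly6c2 and Wdfy4 counts. Among 8 tested pan-leukocyte genes, 1 rose and 7 did not pass, Itgb2, given above, among the latter. The common leukocyte gene Ptprc had a log2 fold change of 0.30 ± 0.36. The epithelial list summed to 1680, 2810 and 2110 CPM in sgUhrf1 tumours and 436, 246 and 155 CPM in sgNT tumours. Of 8 tested fibroblast genes, 3 fell, 1 rose and 4 did not pass, with a median log2 fold change of -0.67. The fibronectin gene Fn1 (-2.11, edgeR adjusted p = 0.0027), the collagen gene Col5a1 (-1.76, adjusted p = 0.00714) and the growth factor receptor gene Pdgfra (-1.73, adjusted p = 0.0211) were the lower ones. The fibroblast list summed to 18500, 8000 and 14700 CPM in sgUhrf1 tumours and 12900, 19900 and 15400 CPM in sgNT tumours. The part of these cells in the Axl, Csf3r, Itgax, Wdfy4 and Ly6c2 values was not tested.

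Ratios of 2 marker genes within a tumour do not depend on the scaling between libraries. The 4 ratios were formed from the same counts, of genes chosen with earlier results known. They restate the gene values given above and are no further support for the calls. The log2 ratio of Csf3r to Lyz2 counts was -2.03, -0.86 and -2.01 in sgUhrf1 tumours and -5.14, -6.64 and -5.53 in sgNT tumours, with no overlap. The difference in means was 4.13 (exact permutation test, two-sided, p = 0.1, Benjamini-Hochberg adjusted 0.133 over 4 ratios). The log2 ratio of Itgax to C1qc was -2.21, -1.42 and -2.93 in sgUhrf1 tumours and -3.47, -4.53 and -3.32 in sgNT tumours, a difference of 1.58 (exact permutation p = 0.1, adjusted 0.133). The log2 ratio of Itgax to Wdfy4 was 5.63, 5.86 and 5.60 in sgUhrf1 tumours and 2.97, 1.19 and 1.24 in sgNT tumours, a difference of 3.90 (exact permutation p = 0.1, adjusted 0.133). A p of 0.1 is the smallest that 3 against 3 tumours allow, so no ratio can pass 0.05 in this design. The log2 ratio of Ly6c2 to Mrc1 was -1.42, 0.64 and -0.67 in sgUhrf1 tumours and -2.52, -8.35 and 1.01 in sgNT tumours, which overlapped (exact permutation p = 0.5). The -8.35 of sgNT replicate 2 is set by the pseudocount of 0.5 over a Ly6c2 count of 0, and without that tumour the difference in means was 0.27 in place of 2.81.

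**Figure D5:**
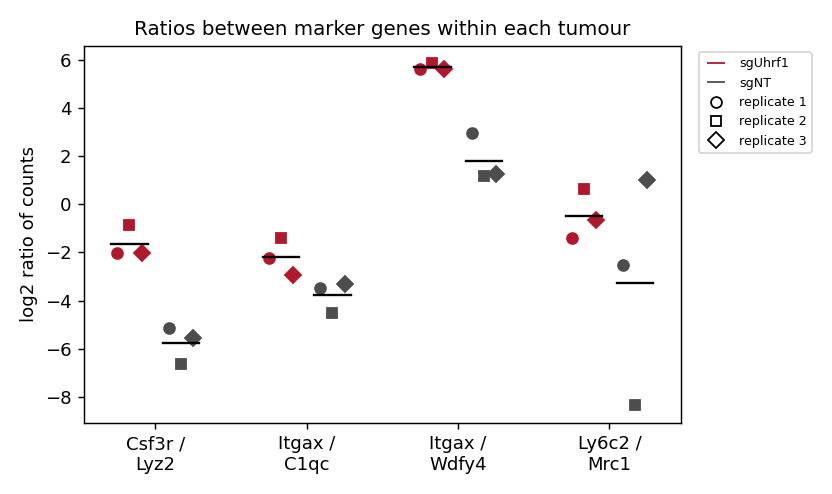
Log2 ratio of counts of 2 marker genes within each tumour on the vertical axis, sgUhrf1 tumours left of sgNT tumours, with a symbol per replicate and a bar at the mean. The first 3 ratios are higher in all 3 sgUhrf1 tumours than in any sgNT tumour, and Ly6c2 to Mrc1 overlaps.

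The genes whose levels moved most alike with each marker over the 6 tumours were found among 3059 tested genes, as the mean absolute difference of centred log2 CPM. For Csf3r they were Gm12216 (0.07), Casp1 (0.16) and H2-DMb1 (0.25). For Itgax they were Ifi47 (0.13), Mndal (0.19) and F11r (0.22). For Wdfy4 they were Fzd8 (0.10), Map2 (0.15) and Nudcd3 (0.17). C1qc was nearest to Clec12a (0.08), Rab3il1 (0.10) and Cfp (0.11), and Lyz2 to Cd300lb (0.15), Zcchc24 (0.18) and Gnb4 (0.19). Among the genes nearest to Ccr2 were Tspan11 (0.19) and Col16a1 (0.22), and Mrc1 was nearest to Col16a1 (0.42), Gm28875 (0.43) and Zcchc24 (0.43). Trem2 was nearest to Cd101 (0.28), Zhx1 (0.29) and Rgs10 (0.30), and Ly6c2 to Cox4i2 (0.89), Il7r (0.93) and H2-DMb2 (0.94), at a much greater distance. Between the 9 genes themselves, Ccr2 and Lyz2 were closest (0.23), then Mrc1 and Lyz2 (0.35) and Mrc1 and Ccr2 (0.39). C1qc and Trem2 stood 0.47 apart, and Itgax and Csf3r 0.67, while Wdfy4 and Csf3r were farthest apart of the pairs (2.52).

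Promoters of the 9 genes, 300 bases around the start site from RefSeq (GRCm38.p6), were searched on both strands for letters bound by myeloid factors. GAGGAA, the core of the PU.1 motif, was in the promoters of 5 of the 9 genes (Mrc1, C1qc, Ly6c2, Trem2 and Csf3r), or 55.6%, against 28.3% of 27025 promoters. The composite motif of PU.1 with an IRF factor, the interferon response motif and TTGCGCAA, for C/EBP, were in 0 of the 9 promoters. They were in 2.79%, 3.49% and 0.185% of all promoters. The composite motif can share letters with GAGGAA and with the interferon response motif. A match is a description of letters and no sign of binding, and no match says only that the letters are not in these windows. The Csf3r promoter is shown since its gene changed most, with GAGGAA in capitals.
Csf3r promoter, chr4:126024409-126024708, plus strand: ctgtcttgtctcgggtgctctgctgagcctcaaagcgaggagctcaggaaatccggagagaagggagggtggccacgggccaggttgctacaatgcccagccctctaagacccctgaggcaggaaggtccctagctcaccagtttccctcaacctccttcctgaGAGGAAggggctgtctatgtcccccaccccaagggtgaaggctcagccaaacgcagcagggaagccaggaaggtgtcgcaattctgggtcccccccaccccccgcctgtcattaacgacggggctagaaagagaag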

How the data were processed

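RNA of 6 tumours was measured, 3 per group. The authors deposited raw counts of read pairs per annotated feature in 1 table per tumour. Per the file headers, they came from featureCounts 2.0.1 over exons of the GENCODE M26 annotation, without strand. The submitters' processing notes also name fastp, STAR and the build GRCm38; for fastp and STAR no version is given in the sources used here. M26 carries positions of another build, so each of the 53599 features was renamed by position: it took a gene where its listed intervals cover at least 50 bp of exon of a single GENCODE M21 gene (GRCm38), small RNA genes set aside. This named 13437 features, holding 40.3% of the counts. Features over exons of several genes held 57.8% and stayed in the fit as shared features. Where several features named 1 gene, that with most counts stood for it.

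Counts were tested with the quasi-likelihood test of edgeR 4.0.16 in R 4.3.3, with TMM scaling, the filterByExpr filter (10 counts at least, 15 in total), and Benjamini-Hochberg adjusted p-values over 10503 features, called at 0.05. CPM are counts per 1000000 TMM-scaled counts. Ratios between genes used a pseudocount of 0.5 counts and an exact permutation test. Alternatives were DESeq2 1.42.0, limma-voom (limma 3.58.1), other filters and scalings, a replicate block, and leaving out tumours. Leaving out the 2 muscle-rich tumours was chosen after seeing the data. The fit was also run on simulated data, whose outcome is not given here. Total counts were 5462555 to 6375069 per tumour. After TMM scaling of these totals, 3 counts, the limit that a count of 0 allows, equal 0.445 to 0.66 CPM; this covers counting error only.

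The 9 genes and all lists were chosen with earlier results of these data known. Named genes are the 9, up to 8 past the threshold from each of 6 myeloid lists, and the 3 most alike each marker among genes whose mean log2 CPM reached 3. Genes named besides these, among them those that did not pass and the shared features, were chosen after their values were seen. The result for 1 gene that the rule names is left out.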

Additional observations from a re-analysis of the deposited data

How the results depend on the processing

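Csf3r and Itgax kept their calls under all 16 alternatives run; leaving out single tumours gave log2 fold changes of 3.17 to 3.87 for Csf3r and 1.91 to 2.31 for Itgax. Wdfy4 kept its direction, at -2.23 to -1.52, but lost its call with limma-voom (-1.74, adjusted p = 0.0555) and with the 2 muscle-rich tumours left out (-2.18, edgeR adjusted p = 0.103), and could not be tested where at least 50 counts in 3 tumours were asked, so genes lower numbered 0 of 9 there. Leaving out single tumours left 2 to 3 genes higher and 0 to 1 lower. C1qc passed with no filter on low counts (0.64, edgeR adjusted p = 0.0238) and ran from 0.40 to 1.07 over single tumours left out. Over the same refits Mrc1 ran from -1.16 to -0.17, Lyz2 from -0.90 to -0.12, Trem2 from 0.64 to 1.45, Ccr2 from -0.71 to 0.12 and Ly6c2 from -0.96 to 2.25. Ly6c2 turned its direction with limma-voom (1.87). The cause of these changes was not tested. Features higher numbered 2121 and lower 2066; single tumours left out gave 1431 to 2020 and 1259 to 1908, and leaving out the 2 muscle-rich tumours gave 1094 and 771. The ratio of Csf3r to Lyz2 differed by 3.70 to 4.45, Itgax to C1qc by 1.20 to 1.95, Itgax to Wdfy4 by 3.59 to 4.48 and Ly6c2 to Mrc1 by 0.27 to 4.95.

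The labels do not say whether replicate numbers pair the tumours. After the mean of its group was taken from each feature, same-numbered tumours correlated at -0.079, -0.021 and 0.05. Tumours of different numbers correlated at -0.065 to 0.11. With 3 tumours per group, these values of what is left within groups cannot decide whether the tumours were paired. With the replicate number as a block, 1838 features were higher and 1807 lower. Under the block, Wdfy4 stood at -1.80 (edgeR adjusted p = 0.066), which left 0 of 9 genes lower, and Ly6c2 at 0.78; Csf3r and Itgax stood at 3.51 and 2.16.

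At this depth Wdfy4 rests on 5 to 36 counts per tumour and Ly6c2 on 0 to 115. Lyz2 and Ly6c2 have no feature with 200 bp of exon.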
